A study of Mus musculus with 10 samples.

Results

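The PEA3 subfamily of ETS transcription factors consists of Etv1, Etv4 and Etv5. Its members were taken as every array probe, other than control spots, whose gene name in the scanner files was one of these symbols. This gave 5 probes (2 for Etv1, 2 for Etv4 and 1 for Etv5) of the 55681 probes on the array, or 3 of 34821 named genes and transcripts. RNA was measured on 10 one-color arrays in 4 groups of mouse spermatogonia. The cultured cells were germline stem (GS) cells, a long-term culture of spermatogonia established from C57BL/6 x ICR intercrossed mice per the study's methods (the labels give C57BL/6, wildtype). All cultures were kept without the growth factors FGF2 and GDNF for 3 days. They were then given 100 ng/mL FGF5 (2 arrays) or no FGF5 (2 arrays) for 24 hr. The freshly isolated cells were GFP+ cells, taken as GFRα1+ spermatogonia, sorted from testes of mice aged 2.5 months. All of these mice carried the Gfrα1-GFP reporter, in a C57BL/6 wild-type (WT) background (3 arrays) or in an Fgf5-/- background with the go-moja allele (3 arrays). Whether animals were pooled for a sort is not given in the sources used here. The culture tested a response to added FGF5, and the sort tested the effect of lifelong absence of 1 FGF ligand in the testis.

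PEA3 factors bind ETS sites in DNA and are classical readouts of FGF and receptor tyrosine kinase signaling. In the absence of signal the repressor Capicua (gene Cic) keeps their genes low, and ERK kinases downstream of the receptors relieve this repression. In the testis, Etv5 is required for lasting self-renewal of spermatogonial stem cells, and GDNF, acting through GFRα1 and RET, is known to raise Etv5 in cultured germ cells. The PEA3 proteins are in turn kept in check by the ubiquitin ligase COP1 with its partners DET1 and DDA1.

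Each probe is 60 bases long, and the scanner files give its coordinates in mouse build mm9. The last 30 bases of each probe are shown because the probes of a gene differ in the stretch of transcript they report, and because 2 of the 5 hold the poly(A) signal letters AATAAA (in capitals), as did 10.1% of all 55681 probes.
Etv1 A_55_P1986321, base 3950 of NM_007960: gggatggtattaattttgatgtataaggaa
Etv1 A_66_P135185, base 2382 of NM_007960: tgccatcctgctgttttggtactacaaata
Etv4 A_55_P1959521, base 2010 of NM_008815: gggacttcccttgtttattatggcaacagg
Etv4 A_55_P2078780, base 2275 of NM_008815: ttAATAAAgcctctgcttctccggttgttt
Etv5 A_55_P2037454, base 3761 of NM_023794: ctgtgtacAATAAAgaagattgctttcctt
The base named is the position in the transcript where the probe starts, as the files give it. The Etv1 probes lie on the plus strand of chromosome 12, at 39594622 to 39594681 and 39593054 to 39593113. The Etv4 probes lie on the minus strand of chromosome 11, at 101631322 to 101631381 and 101631057 to 101631116. The Etv5 probe lies on the minus strand of chromosome 16, at 22381387 to 22381446. Exon and UTR annotation of mm9 was not used here.

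Since Etv4 and Etv5 moved together across the arrays, promoters were searched for 4 octamers of the kind Capicua is known to bind (TGAATGAA, TGAATGAG, TGAATGGA and TGAATGGG) and for the ETS core CCGGAAG, on both strands, from 250 bases before each RefSeq start of build GRCm38.p6 to 50 after it. The promoter set used held 2 starts each for Etv1 and Etv5. It held no Etv4 start, so the Etv4 promoter was not searched and could not be compared with that of Etv5. At 1 of the Etv5 starts (chr16:22438319-22438618, minus strand) the octamers matched 3 times, each time as TGAATGGG. The 30 bases around each match are shown with the match in capitals.
Etv5, 242 bases before the start, chr16:22438589-22438618: agttttcaTGAATGGGaaggctgggaattg
Etv5, 198 bases before the start, chr16:22438548-22438577: gtcttgttttgTGAATGGGgccgggcgcga
Etv5, 131 bases before the start, chr16:22438481-22438510: cggctccatctCCCATTCAtaaaaccaggc
The last of these is on the opposite strand and appears as CCCATTCA. Of all 32851 promoters of this length, 4.6% held at least 1 of the 4 octamers and 0.0578% held 3 or more. The cutoff of 3 equals the count at the Etv5 start shown, so this share is a description and not a test. The other Etv5 start and both Etv1 starts held none. The letters CCGGAAG were in none of the 4 Etv1 and Etv5 promoters and in 8.86% of all promoters. These matches describe letters only; no binding was measured here.

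Between 55.3% and 65.9% of probes were well above background (the scanner software's own call) on an array, and no spot was saturated. All 10 markers of undifferentiated spermatogonia, among them Gfra1, Ret, Id4 and Zbtb16, were well above background on every array. Their summed level was 175 to 210 (each level linear and relative to the array's 75th percentile). Single genes of this list differed more than the sum. Gfra1, Ret, Nanos2 and Sall4 were lower on every culture array than on every sorted array, and the other listed genes overlapped. Nanos2 had log2 levels of 0.66 to 1.01 in culture and 2.12 to 2.74 after sorting. The 4 markers of differentiating spermatogonia were also well above background on every array. Sums of different lists were not compared, since the lists differ in length and probes. The Sertoli list summed to 2.19 to 2.71 in culture and 4.60 to 5.95 after sorting. Of its 8 genes, 4 to 6 were well above background in culture and 6 to 7 after sorting. Gata4, Rhox5 and Wt1 were above it on all arrays and Amh on none. Rhox5 carried most of the gap in the sum (log2 levels of -1.69 to -0.69 in culture and 1.07 to 1.42 after sorting). Cldn11, Cst12, Dhh and Gata4 were also higher after sorting. Sox9 went the other way (-4.00 to -2.19 and -5.08 to -4.20), and Wt1 overlapped. The fibroblast and feeder list summed to 13.1 and 14.98 in the cultures numbered 1 and to 5.20 and 6.53 in those numbered 2. Col1a1, a fibrillar collagen gene, carried this gap (log2 levels of 3.49 and 3.71 against 1.56 and 2.02), whereas the median log2 level of the list was lower in the cultures numbered 1 (-2.81 and -2.73) than in those numbered 2 (-2.45 and -1.99). The single Fgf5 probe (mm9 chromosome 5, 98705980 to 98706039) was not well above background on any WT sorted array. It was above background on the 4 culture arrays and on 1 Fgf5-/- array, replicate 1, at a log2 level of -3.42. The position of the mutation relative to the probe is not given in the sources used here, so the probe does not check the genotype labels. Levels below are log2 values relative to each array's 75th percentile. A level says how bright 1 probe was, and levels of different probes were not compared. In bulk RNA, fewer cells of a type and less RNA per cell cannot be told apart.

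In GS cells, Etv4 and Etv5 were far higher on both arrays with FGF5 than on both arrays without it, and Etv1 was not. Etv5, the stem cell self-renewal factor, had levels of 3.05 and 4.32 with FGF5 and of 0.51 and -0.99 without it. The groups did not overlap, and the gap between them exceeded the distance between replicates in either group. This was a log2 difference of 3.92 (SE 0.66, n = 2 against 2), or 15.2-fold (95% CI 4.52 to 51.0). Etv4, its close relative in the same FGF response, had levels of 2.08 and 3.71 with FGF5 and of -0.41 and -0.29 without it at the brighter probe, A_55_P2078780. At the other Etv4 probe, A_55_P1959521, the levels were 0.18 and 1.92 with FGF5 and -3.30 and -2.70 without it. Both Etv4 probes separated the groups, and on both the lower FGF5 array was replicate 1. The log2 differences were 3.24 (SE 0.56; 9.47-fold, 95% CI 3.41 to 26.3) and 4.05 (SE 0.63; 16.6-fold, 95% CI 5.29 to 52.1).

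Etv1, the member best known from neurons and muscle spindles, gave no comparable signal. Its probe A_66_P135185 was well above background on all 10 arrays, with levels of -3.46 and -3.36 with FGF5 and of -3.31 and -3.57 without it. The groups overlapped. The log2 difference was 0.03 (SE 0.18, 95% CI -0.44 to 0.50). Its sign was negative after another background correction (-0.02), without FGF5 replicate 2 (-0.02) and without no-FGF5 replicate 2 (-0.10). The other Etv1 probe, A_55_P1986321, was well above background on 0 of 10 arrays and was not tested. The 2 probes start 1568 bases apart in the transcript. They disagree on whether Etv1 RNA was detected, and the cause was not tested.

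**Figure D1:**
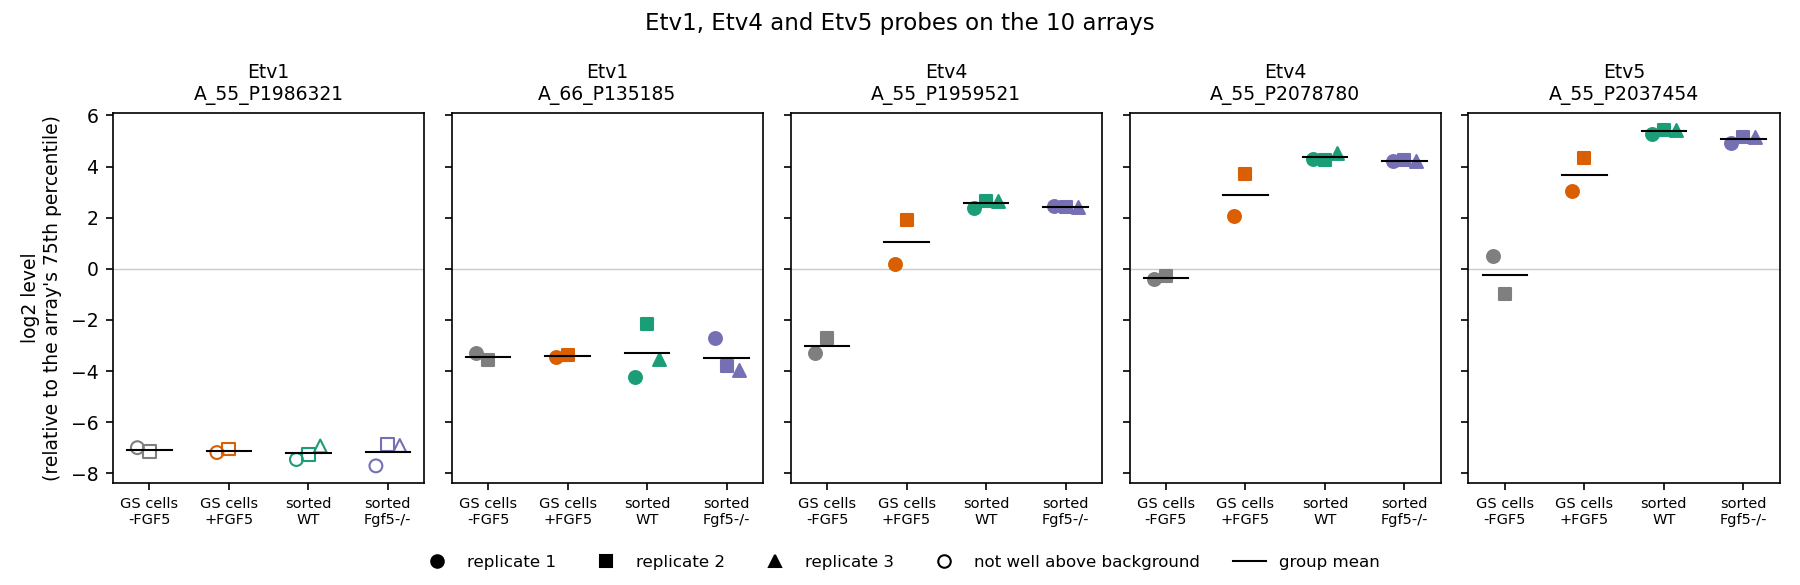
Log2 level (relative to the array's 75th percentile) of each of the 5 probes, 1 panel a probe, in GS cells without and with FGF5 and in sorted WT and Fgf5-/- cells; symbols are single arrays, open where not well above background, and black lines are group means. Levels compare within a panel only: the Etv4 and Etv5 probes were lowest in GS cells without FGF5 and highest in sorted cells, while Etv1 overlapped in all 4 groups or was at background.

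No member probe passed the adjusted threshold in culture. With limma and Benjamini-Hochberg adjustment over 34608 probes, the adjusted p was 0.9999 for all 4 tested probes, and 0 probes of the whole array passed (0%). At an unadjusted p under 0.05 the array held 882 probes (2.55%), among them 3 of the 4 members. Their unadjusted limma p-values were 0.00176 and 0.00278 for Etv4 and 0.00256 for Etv5. By the size of the log2 difference, Etv4 A_55_P1959521 stood at rank 5, Etv5 at rank 8 and Etv4 A_55_P2078780 at rank 16 of 34608. Of all tested probes, 0.867% were at least 2-fold higher with FGF5 and 8.18% were higher with no overlap between groups.

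The spread between the FGF5 arrays was wide at these genes. The SD was 0.90 for Etv5 and 1.15 and 1.23 for the Etv4 probes, against a median of 0.16 over probes well above background on all arrays. Arrays that share a replicate number differed by 2.54 (number 1) and 5.31 (number 2) for Etv5. For Etv4 A_55_P2078780 these differences were 2.49 and 4.001. The larger values were those of the cultures numbered 2, in which Col1a1 was lower and the median of the fibroblast and feeder list higher; their part in the difference was not tested. Leaving out 1 array at a time gave log2 differences of 3.18 to 4.67 for Etv5, 2.43 to 4.06 for Etv4 A_55_P2078780 and 3.18 to 4.92 for Etv4 A_55_P1959521, with a smallest adjusted p of 0.0999 (limma).

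In sorted cells the same factors stood high in both genotypes, and the differences between genotypes were small. Etv5 had levels of 5.28, 5.44 and 5.41 in WT and of 4.91, 5.15 and 5.14 in Fgf5-/-. Every Fgf5-/- array lay below every WT array. The log2 difference was -0.31 (SE 0.12, 95% CI -0.59 to -0.03, n = 3 against 3), or 0.806-fold. It did not pass the test (limma adjusted p = 0.728, unadjusted p = 0.0351). Without Fgf5-/- replicate 1, the array with signal at the Fgf5 probe, it was -0.23, and after quantile normalization -0.15.

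For Etv4, probe A_55_P2078780 had levels of 4.29, 4.27 and 4.52 in WT and of 4.20, 4.27 and 4.21 in Fgf5-/-. The groups were separated by only -0.0053 between the lowest WT and the highest Fgf5-/- array. The log2 difference was -0.14 (SE 0.11, 95% CI -0.40 to 0.13; limma adjusted p = 0.780). After quantile normalization it was -0.00069. Probe A_55_P1959521 had levels of 2.37, 2.66 and 2.64 in WT and of 2.45, 2.43 and 2.40 in Fgf5-/-. Here the groups overlapped, with a log2 difference of -0.13 (SE 0.12, 95% CI -0.41 to 0.15; limma adjusted p = 0.789).

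Etv1 A_66_P135185 had levels of -4.24, -2.16 and -3.52 in WT and of -2.72, -3.80 and -3.97 in Fgf5-/-. The groups overlapped widely, and the high arrays were WT replicate 2 and Fgf5-/- replicate 1. These were the 2 sorted arrays with the largest share of probes well above background (61.6% and 65.9%); the part of this share in the Etv1 values was not tested. The log2 difference of -0.19 (SE 0.58, 95% CI -1.58 to 1.20; limma adjusted p = 0.937) turned to 0.38 without WT replicate 2 and to 0.04 without Fgf5-/- replicate 3. In all, 0 of 4 member probes and 0 of 30283 tested probes (0%) passed the adjusted threshold in limma. At an unadjusted p under 0.05 there were 2055 probes (6.79%), among them 1 member, Etv5. Of all tested probes, 9.20% were lower in Fgf5-/- with no overlap, as were 2 of the 4 member probes.

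GS cells without FGF5 held far less Etv4 and Etv5 RNA, relative to each array's own distribution, than freshly sorted WT cells. Etv5 was lower by a log2 difference of -5.62 (SE 0.46), a 49.2-fold gap (95% CI 23.8 to 101). Etv4 was lower by -4.71 (SE 0.39; 26.1-fold) at A_55_P2078780 and by -5.56 (SE 0.43; 47.1-fold) at A_55_P1959521. All 3 passed the test, with limma adjusted p-values of 6.8e-05, 7.0e-05 and 5.6e-05. The background of this comparison was large: 54.6% of 35823 probes passed it, 20.7% as lower. Only 11.3% were at least 2-fold lower, and by size all 3 probes were within the lowest 0.299%. Etv1 differed by -0.14 (SE 0.57; limma adjusted p = 0.854), and this turned to 0.44 without WT replicate 2, to 0.03 after another background correction and to 0.03 with another percentile.

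With FGF5 the gap to sorted WT cells was smaller but still present, set against the same WT arrays. Etv5 was lower by -1.69 (SE 0.46; 3.24-fold, 95% CI 1.57 to 6.68; limma adjusted p = 0.0148). Etv4 was lower by -1.46 (SE 0.39; 2.76-fold; limma adjusted p = 0.0136) at A_55_P2078780 and by -1.51 (SE 0.43; 2.84-fold; limma adjusted p = 0.0193) at A_55_P1959521. These 3 calls stand in a comparison in which 51.0% of probes passed and 19.9% passed as lower; 10.6% were at least 2-fold lower. Etv1 differed by -0.11 (SE 0.57; limma adjusted p = 0.889), and by 0.47 without WT replicate 2. These calls rested on few arrays. Without FGF5 replicate 1, which leaves 1 array with FGF5 and takes the spread from the other groups, Etv5 was at -1.06 (limma adjusted p = 0.129), Etv4 A_55_P1959521 at -0.63 (limma adjusted p = 0.0914) and Etv4 A_55_P2078780, still called, at -0.65. Without WT replicate 3, Etv4 A_55_P1959521 missed the threshold (-1.46, limma adjusted p = 0.0501). With only the GS cells with FGF5 and the sorted WT cells fitted, both Etv4 probes missed it (limma adjusted p = 0.0533 for A_55_P2078780 and 0.0592 for A_55_P1959521).

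Culture and sort lay on different slides. They also differed in strain per the study's methods, and the Gfrα1-GFP reporter is named for the sorted mice only. Only the cultures were kept without FGF2 and GDNF. Material, strain, reporter, this withdrawal and slide cannot be told apart. Other scalings moved the median of all probes by -0.14 to 0.17 in these comparisons, and keeping only probes above background on every array moved it by up to -0.19, which is small beside the Etv4 and Etv5 differences. Differentiating spermatogonia markers summed to 58.3 to 81.6 in culture and 117 to 140 after sorting, and spermatid markers to 0.837 to 1.03 and 4.52 to 16.0. The endothelial sum went the other way, at 8.06 to 9.66 in culture and 2.38 to 4.64 after sorting. So did the Leydig cell sum (4.98 to 6.65 and 0.417 to 1.95) and the macrophage sum (3.38 to 4.22 and 0.785 to 1.80). Stra8 carried the gap in the differentiating sum (log2 levels of 2.57 to 3.28 in culture and 5.76 to 6.14 after sorting). Kit was also higher after sorting, and Sohlh1 and Dmrtb1 overlapped. Kdr carried the endothelial sum (log2 levels of 2.95 to 3.21 in culture and 0.81 to 2.04 after sorting), and Pecam1 was also higher in culture. Cdh5 (-4.49 to -4.10 and -2.21 to -1.59) was higher after sorting, as was Tek, not well above background in culture. Cyp17a1 carried the Leydig cell sum (2.28 to 2.70 and -1.64 to 0.88), and Cyp11a1 was not well above background on any array. The part of these lists in the level differences was not tested.

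**Figure D2:**
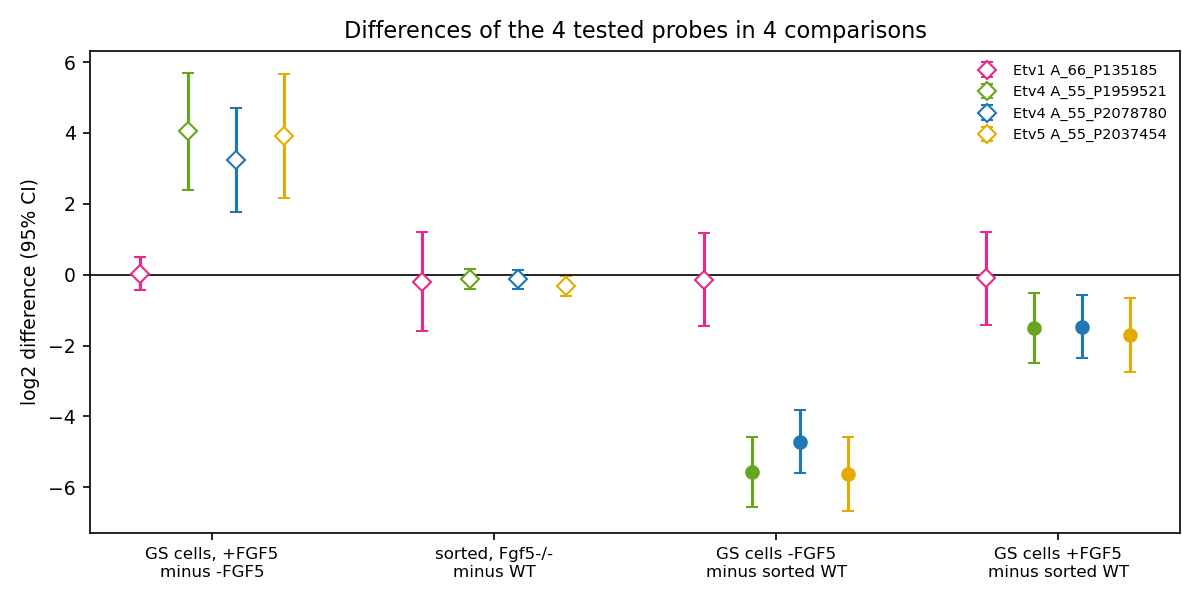
Log2 difference with its 95% confidence interval for the 4 tested probes in the 4 comparisons; filled circles passed the adjusted threshold of 0.05 and open diamonds did not. The Etv4 and Etv5 probes lay at 3.24 to 4.05 for FGF5 in GS cells, at -0.31 to -0.13 for the genotypes, and below 0 against sorted WT cells, which serve in both right-hand comparisons; every Etv1 interval covers 0.

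Ordered by mean level, Etv5 ran from GS cells without FGF5 (-0.24 ± 1.06, SD, n = 2) through GS cells with FGF5 (3.68 ± 0.90, n = 2) and sorted Fgf5-/- cells (5.07 ± 0.14, n = 3) to sorted WT cells (5.38 ± 0.08, n = 3). Etv4 A_55_P2078780 followed the same order, at -0.35 ± 0.08, 2.90 ± 1.15, 4.22 ± 0.03 and 4.36 ± 0.14 (SD). The order was again the same at Etv4 A_55_P1959521, at -2.999 ± 0.43, 1.05 ± 1.23, 2.43 ± 0.02 and 2.56 ± 0.16 (SD). In this order the sorted genotypes are neighbors that did not differ past the test. For Etv1 A_66_P135185 the 4 means lay between -3.50 and -3.30 and the SDs reached 1.06, so no order could be given.

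Outside the PEA3 subfamily, the ETS factors showed no difference of this size with FGF5. Of 23 other family members on the array 19 were tested in culture, 0 passed the adjusted threshold in limma and 0 were at least 2-fold apart. Their median log2 difference was 0.03 (range -0.88 to 0.85), beside -0.03 over all tested probes. Among those well above background on all 4 arrays, the values farthest from 0 were Etv2, a factor of blood and vessel formation, at 0.58 (SE 0.24), Fli1, of the same tissues, at -0.53 (SE 0.56), and the repressor Etv6 at -0.30 (SE 0.19). The Fli1 value turned to 0.22 without FGF5 replicate 2. In sorted cells 18 were tested and 0 passed, with a median of -0.14 beside -0.03 over all tested probes. The largest were Elf4 at 0.74 (SE 0.28), Gabpa at 0.40 (SE 0.36) and Etv2 at -0.39 (SE 0.19). The Gabpa value came from WT replicate 2, at a level of 0.25 against 1.64 and 1.49 in the other WT arrays, and was -0.04 without it. The Elf4 groups overlapped, with levels of -3.69, -2.64 and -3.39 in WT and of -2.70, -2.31 and -2.50 in Fgf5-/-.

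Against sorted WT cells, 2 ETS factors were higher and 6 lower in GS cells without FGF5, of 19 tested (limma; background 33.9% higher and 20.7% lower). The falls were led by Etv2 (-1.89), Elk3 (-1.46) and Etv3 (-1.22), and the rises were Fev (1.80) and Spdef (1.51). With FGF5, 3 were higher and 5 lower (background 31.1% and 19.9%). Fev (1.79), Spdef (1.51) and Elf4 (0.94) were the rises, and the falls were led by Spic, Etv2 (-1.31) and Etv3 (-1.22). Spic was not well above background with FGF5 and was at least 2.67-fold lower there. Leaving out 1 array at a time gave 1 to 3 higher and 4 to 6 lower without FGF5, and 2 to 3 higher and 4 to 5 lower with it. Elk3, Spdef and Elf4 were among the calls lost, Elf4 for 4 of the 10 arrays. The list medians were -0.27 and -0.20, beside 0.27 and 0.22 over all tested probes.

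Genes that act on the PEA3 factors mostly lay near 0 in culture, and the values farthest from 0 were those of Trib1 and of the GDNF receptor genes Gfra1 and Ret. Of 22 listed regulators 21 were tested and 0 passed in limma, with a median log2 difference of -0.02. Cic, the repressor of PEA3 genes, was at 0.01 (SE 0.15), with levels of 5.94 and 5.91 with FGF5 and of 5.93 and 5.89 without it. Trib1, an adaptor of the ligase COP1, had levels of -0.21 and 1.41 with FGF5 and of -2.09 and -1.02 without it. These did not overlap (log2 difference 2.16, SE 0.66). Gfra1, the GDNF co-receptor, was at 1.55 (SE 0.94), with -2.52 and -0.52 against -4.07 and -2.09, which overlapped. Ret, the signaling receptor, was at 1.44 (SE 0.42), with -0.21 and 0.91 against -1.30 and -0.89, and did not overlap.

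In sorted cells all 22 regulators were tested, 0 passed in limma and the differences ran from -0.21 to 0.06. The largest in size were Map2k2, a MEK kinase, at -0.21 (SE 0.14) and the coactivator gene Ep300 at -0.19 (SE 0.16). Against sorted WT cells, 10 of 22 passed as lower (background 20.7%) and 2 as higher (33.9%) in GS cells without FGF5. Gfra1 (-3.87), Trib1 (-2.95) and Ret (-2.82) were the largest falls, and the FGF receptor gene Fgfr2 (0.93) was among the rises. With FGF5, 9 were lower (background 19.9%) and 3 higher (31.1%). Gfra1 (-2.31), Atxn1 (-2.24) and Ret (-1.37) led the falls, and Fgfr2 (0.89) and Fgfr1 (0.43) were among the rises. Atxn1 was well above background on only 1 of the 2 FGF5 arrays, so its value rests in part on background signal. The Gfra1 call was lost without FGF5 replicate 1 (-1.31, limma adjusted p = 0.140), and the Fgfr1 call was lost for 7 of the 10 arrays left out in turn. The sort selected on a reporter of Gfra1, so its value against sorted cells is a description only.

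Genes known from earlier work to depend on Etv4 or Etv5 mostly had higher values with FGF5. All 8 were tested, 0 passed in limma, 6 were higher with no overlap between groups (background 8.18%) and 5 were at least 2-fold higher (background 0.867%). Their median was 1.38. Ret belongs both to this list and to the regulators above, with the same values. Lhx1, a homeobox gene of stem cell self-renewal, had levels of -1.73 and 0.09 with FGF5 and of -4.37 and -3.51 without it (log2 difference 3.11, SE 0.68). Bcl6b, a repressor needed in cultured stem cells, had 0.98 and 2.27 against -0.78 and -1.01 (2.52, SE 0.46). The mesoderm factor T, named for its bound, was not well above background without FGF5 and was at least 4.98-fold higher with it. The exceptions were Met, at -0.04, and Myb, at -0.35 with no overlap.

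In sorted cells 0 of these 8 genes passed in limma, and their median was -0.02. Lhx1 was at -0.58 (SE 0.23), with levels of 0.32, 1.005 and 0.88 in WT and of 0.47, -0.06 and 0.04 in Fgf5-/-, which overlapped. T was at -0.18 (SE 0.25), or 0.0006 without Fgf5-/- replicate 3, and Bcl6b at -0.15 (SE 0.15). Against sorted WT cells, 6 of the 8 were lower without FGF5 against a background of 20.7% (T at least 37.6-fold, Lhx1 by -4.67 and Ret by -2.82) and Met was higher, at 0.55, a call lost without WT replicate 3 or without no-FGF5 replicate 2. With FGF5, T (-2.92), Lhx1 (-1.56) and Ret (-1.37) were lower, against a background of 19.9%, and Met (0.50) was higher. Without FGF5 replicate 1 the Lhx1 call was lost (-0.65, limma adjusted p = 0.254), as it was without WT replicate 2 or 3, and the Met call was lost without FGF5 replicate 2 or any 1 of the WT arrays. With 1 array left out, 2 to 5 of the 8 genes were lower. With FGF5, Bcl6b was at 0.22 (SE 0.33; limma adjusted p = 0.604), and at -0.43 without FGF5 replicate 2.

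Genes that report ERK activity lay to the same side as Etv4 and Etv5 in culture. Of 14 listed, 12 were tested and 0 passed in limma. All 12 log2 differences were above 0, from 0.59 to 4.59, with a median of 0.85, beside -0.03 over all tested probes. In 10 of the 12 the groups did not overlap, against 8.18% of all tested probes. Dusp6, the ERK phosphatase, had levels of 2.26 and 4.06 with FGF5 and of -1.33 and -1.53 without it (log2 difference 4.59, SE 0.62). Epha2, an ephrin receptor, had 1.09 and 3.46 against -1.76 and -2.54 (4.43, SE 0.84). Phlda1, a growth factor response gene, had 0.26 and 1.81 against -1.17 and -1.13 (2.18, SE 0.53). In each of these, as in Etv4 and Etv5, FGF5 replicate 1 was the lower of the pair. The feedback inhibitor Spry4, named for its bound, was at least 6.38-fold higher with FGF5.

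In sorted cells 18 of 22 regulators, 11 of 18 other ETS factors and 5 of 8 genes known to depend on Etv4 or Etv5 were below 0. The medians of these lists were -0.05, -0.14 and -0.02. Over all tested probes the median was -0.03, so values below 0 were the more common there too. Of the ERK output genes 13 were tested, 0 passed in limma and 11 were below 0. Their median was -0.10, beside -0.03 over all tested probes. Phlda1 (-0.42, SE 0.17), Epha2 (-0.41, SE 0.17) and Dusp6 (-0.28, SE 0.11) were farthest from 0. Dusp6 had levels of 4.58, 4.76 and 4.60 in WT and of 4.28, 4.43 and 4.38 in Fgf5-/-, which did not overlap. Against sorted WT cells, 11 of 13 passed as lower without FGF5 (background 20.7%), led by Dusp6 (-6.08), Dusp4 (-5.60) and Epha2 (-5.00). Dusp4 was not well above background in no-FGF5 replicate 2, so its value rests in part on background signal. With FGF5, 7 passed as lower (background 19.9%), led by Dusp4 (-2.05), Spred2 (-1.82) and Dusp6 (-1.49). This count was 3 without FGF5 replicate 1 and 10 without FGF5 replicate 2.

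**Figure D3:**
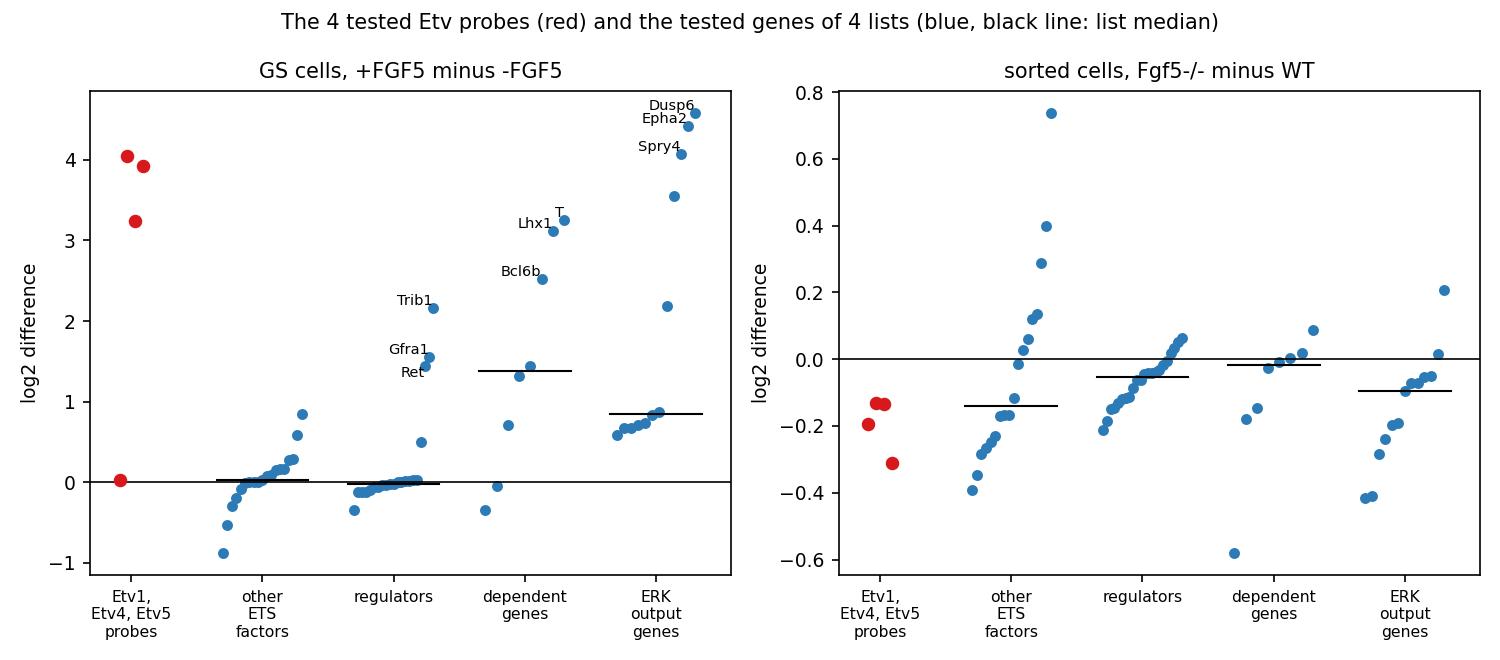
Log2 differences in culture (left) and in sorted cells (right, on a narrower axis) for the 4 tested Etv probes in red and for the tested genes of 4 lists in blue, with black lines at list medians. In culture 3 Etv probes stood at 3.24 to 4.05 with the upper ERK output and dependent genes, while the other ETS factors stayed between -0.88 and 0.85; in sorted cells no value passed the test.

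The array profiles of Etv4 and Etv5 were alike. Over the 10 arrays their Pearson r was 0.98 (probe A_55_P2078780 for Etv4), while Etv1 A_66_P135185 gave 0.03 with Etv4 and 0.05 with Etv5. The 10 points share slides and the culture-to-sort gap, so these values are a description. Among 24226 probes spanning at least 1 log2 unit, the genes most like Etv4 were the immediate early factor gene Egr2 (r = 0.996), the phosphatase gene Dusp4 (0.996), Mtap7d3 (0.996), the neurofilament gene Nefm (0.996) and the mannose receptor gene Mrc1 (0.995). Those most like Etv5 were the immediate early gene Ier3 (0.993), Dusp6 (0.988), the transcript ENSMUST00000181716 (0.988), Egr2 (0.987) and Mrc1 (0.984). Egr2 had levels of 1.76 and 3.51 with FGF5, of -0.08 and -0.48 without it, and of 3.78 to 4.06 in sorted cells. Mrc1 was not well above background in either culture without FGF5.

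Etv1 A_66_P135185 was most like D030036P13Rik (r = 0.974), an intergenic region probe (0.962), Triobp (0.961), Vmn1r65 (0.954) and EU234054 (0.954). In D030036P13Rik the highest levels were those of WT replicate 2 (-2.59) and Fgf5-/- replicate 1 (-3.32), the same 2 arrays that were high for Etv1. This probe was well above background on those 2 and on the 4 culture arrays, and not on the other 4 sorted arrays.

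**Figure D4:**
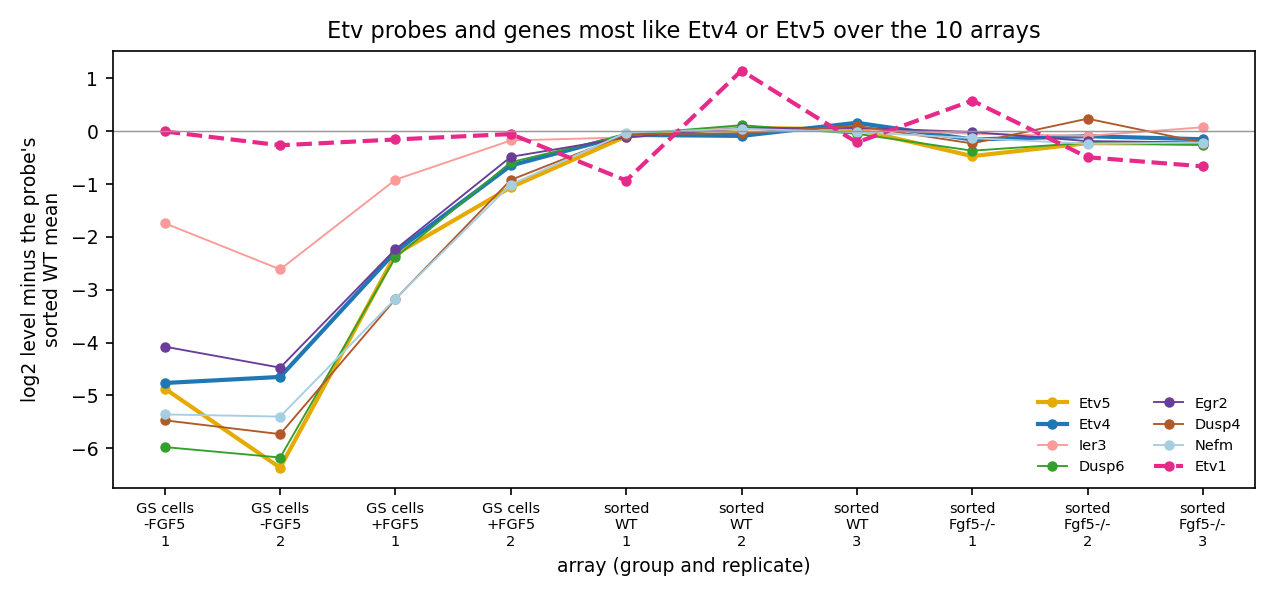
Log2 level of Etv5, Etv4 (A_55_P2078780), Etv1 (A_66_P135185, dashed) and 5 of the genes most like Etv4 or Etv5, each minus the same probe's mean in sorted WT cells, on the 10 arrays; lines only join the points of a gene. Without FGF5, Egr2 was at -4.08 and -4.47 and Ier3 at -1.74 and -2.61, with Etv4, Etv5, Dusp6, Dusp4 and Nefm lower than Egr2; these genes were nearer to 0 in FGF5 replicate 2 than in replicate 1, while Etv1 was high in WT replicate 2 and Fgf5-/- replicate 1.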

How the data were processed

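Cy3-labeled RNA was hybridized to Agilent 8x60K mouse arrays, scanned, and read by the authors with Feature Extraction (version 10.7.3.1 per the labels). The deposited scanner files hold background-corrected spot intensity values, and the deposited table holds the authors' log2 values, floored, shifted to the 75th percentile and not baseline-transformed; it served as an alternative. Here intensities were floored at 1, taken to log2 and shifted by each array's 75th percentile over noncontrol spots. Spots flagged as outliers were left out (117 to 205 an array, none of a member) and spots of a probe averaged. A probe was tested if all arrays of 1 group or more called it well above background, using limma 3.58.1 (R 4.3.3; lmFit, eBayes, two-sided, Benjamini-Hochberg over all tested probes, threshold 0.05). Culture and sort were fitted apart, and levels in 1 fit of 10 arrays with 4 groups. Folds against probes not above background are bounds from the lowest signal above background. Alternatives changed the normalization, background correction, percentile, dim-probe filter, variance trend, outlier spots, block, arrays fitted and each array left out (for the listed genes, this was added after seeing the data). Sequences are the files' probe sequences and RefSeq promoters.

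The members and the gene lists were chosen with earlier results of these data known. Other genes named are, per list and comparison, all past the threshold if 5 or fewer, otherwise the 3 largest rises and falls; if none, the 3 farthest from 0 among those above background on every array compared. A gene was read from its brightest probe. The values of 1 gene that this rule names are not reported here. Genes most like a member are the 5 highest by Pearson r. T, Spry4, Cic, Met, Myb and D030036P13Rik's levels were singled out after their values were seen. On simulated arrays with 200 changed probes, culture recovered 0% at log2 changes of 1 and 2 and 77.5% at 4. The sort recovered 42.5%, 84% and 96.5%. The changed probes were drawn at random, each with its own spread. Recovery at probes as variable as those of Etv4 and Etv5 in culture was thus not measured. Precision is limited by 2 or 3 arrays a group. Replicates are independent experiments per the series' design text; p-values measure the spread between these samples.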

Additional observations from a re-analysis of the deposited data

How the results depend on the processing

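The 3 Etv4 and Etv5 probes kept their direction under every alternative run, and 0 of them passed the threshold in culture (14 alternatives) or in sorted cells (16). Against sorted WT cells without FGF5 all 3 passed under all 19 alternatives. With FGF5, 3 of 4 probes passed in the reported fit and 1 to 3 with 1 array left out. Etv4 A_55_P1959521 missed the threshold without FGF5 replicate 1 (-0.63) and without WT replicate 3 (-1.46), and ranged from -2.38 to -0.63 with 1 array left out; Etv5 missed it without FGF5 replicate 1, over a range of -2.33 to -1.06. With only the arrays of the 2 groups fitted, 1 probe passed, since Etv4 A_55_P1959521 (-1.51, limma adjusted p = 0.0592) and A_55_P2078780 (-1.46, limma adjusted p = 0.0533) did not. Etv1 changed sign in culture after normexp correction (-0.024) and with 1 array left out (-0.10 to 0.16), in sorted cells with 1 array left out (-0.66 to 0.38), and against sorted WT cells after normexp correction (0.034, without FGF5), with the percentile over probes above background (0.026 without and 0.060 with FGF5) and with 1 array left out (-0.60 to 0.44 without and -0.57 to 0.47 with FGF5). None of these Etv1 values passed the test, and the causes were not tested.

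Replicate numbers are not stated to mark a shared culture, sort or day. The deviations of same-numbered arrays correlated at r = 0.64 in culture, a single value since 2 arrays a group give both pairs the same r, and at values below 0 in sorted cells (-0.42, -0.16 and -0.15). When replicate number entered as a block, 0 probes passed in either comparison. The blocked log2 differences were those without the pairing, with limma adjusted p-values in culture of 0.566 for Etv5 and of 0.282 and 0.505 for Etv4 A_55_P1959521 and A_55_P2078780.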
